A study of Rattus norvegicus with 10 samples.

Results

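The genes described here are *Thrsp* and 9 genes of fatty acid synthesis, *Fasn*, *Acaca*, *Acly*, *Scd*, *Scd2*, *Elovl6*, *Me1*, *Srebf1* and *Pnpla3*, in the trigeminal ganglion (TG), which holds the sensory neurons of the face and mouth. *Thrsp* was chosen by its difference between OUM and naive rats on these same arrays, and the other 9 genes were listed with it for their place in the pathway. The differences of the 10 genes are therefore given as a description, and where they are counted at a threshold, nothing is read from the count. They are 10 of 15507 genes with a symbol on the array, and 12 of its 30367 probes belong to them.

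The TG of 5 OUM model rats and 5 naive rats was measured with 1 array per rat. OUM, oral ulcerative mucositis, was made in male Wistar rats, 8 weeks old. Filter paper with 50% acetic acid was laid on the mucosa in front of the lower incisors for 30 s. The anesthesia was pentobarbital or a mixture of butorphanol, medetomidine and midazolam. Naive rats of the same age were anesthetized only, and their arrays are labelled as controls. TGs of both groups were taken on day 2, after saline perfusion. Whole ganglia of both sides were used, although the ulcer lies in the territory of 1 branch of the nerve, so each value is an average over neurons, glia and other cells.

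Fatty acid synthesis turns citrate into acetyl-CoA, carboxylates it to malonyl-CoA and joins these units into palmitate, with NADPH as the reductant. Palmitate is then elongated and desaturated, and the transcription factors SREBP-1c and ChREBP switch on most genes of the pathway. *Thrsp*, also called Spot 14, was first described as a gene induced by thyroid hormone in rat liver, and it encodes a small protein that acts with the pathway in liver, fat and mammary gland. In nerve, Schwann cells make fatty acids for myelin.

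The sequence before the RefSeq start was read for 7 of the 10 genes, which have 8 starts in the RefSeq promoter table of build GRCr8. *Fasn*, *Acaca* and *Elovl6* are named only. The 250 bases before the start are printed for the genes with the largest differences, *Thrsp* and *Srebf1*, and for *Scd2*, whose groups had nearly the same level. They lie at chr1:161138965-161139214 on the minus strand (*Thrsp*), at chr10:45529165-45529414 and chr10:45519011-45519260 on the minus strand (the first and second start of *Srebf1*) and at chr1:253118127-253118376 on the plus strand (*Scd2*). Each is written 5′ to 3′ along the gene. Capitals mark the CCAAT box, found as CCAAT or its reverse complement ATTGG, and the E-box, CANNTG.
Thrsp: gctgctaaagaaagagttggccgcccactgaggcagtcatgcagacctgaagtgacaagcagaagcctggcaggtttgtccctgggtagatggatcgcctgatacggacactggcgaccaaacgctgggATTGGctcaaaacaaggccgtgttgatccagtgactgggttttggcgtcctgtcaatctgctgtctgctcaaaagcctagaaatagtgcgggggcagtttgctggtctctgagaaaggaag
Srebf1, first start: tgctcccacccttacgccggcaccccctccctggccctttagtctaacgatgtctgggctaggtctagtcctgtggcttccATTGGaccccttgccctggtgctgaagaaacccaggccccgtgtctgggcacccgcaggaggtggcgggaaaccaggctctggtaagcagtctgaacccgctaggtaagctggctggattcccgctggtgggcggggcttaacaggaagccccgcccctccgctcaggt
Srebf1, second start: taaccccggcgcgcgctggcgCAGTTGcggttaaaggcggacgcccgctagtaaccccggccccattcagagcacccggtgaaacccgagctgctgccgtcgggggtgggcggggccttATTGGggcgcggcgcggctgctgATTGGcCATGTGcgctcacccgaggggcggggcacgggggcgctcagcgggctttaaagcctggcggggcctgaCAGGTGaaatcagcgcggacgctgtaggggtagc
Scd2: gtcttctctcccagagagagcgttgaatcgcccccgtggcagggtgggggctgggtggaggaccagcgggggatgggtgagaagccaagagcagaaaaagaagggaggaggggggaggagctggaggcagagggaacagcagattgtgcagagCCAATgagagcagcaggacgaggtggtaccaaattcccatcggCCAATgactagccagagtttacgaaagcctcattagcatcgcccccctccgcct

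The *Thrsp* window held 1 CCAAT box, whose first base lies 121 bases before the start, and no E-box. The second start of *Srebf1* had CCAAT boxes 131 and 108 bases before it and E-boxes 229, 102 and 34 bases before it, and the first start had 1 CCAAT box, at 169 bases. In *Scd2*, CCAAT boxes lay 97 and 54 bases before the start. A CCAAT box was present in 6 of the 8 windows, against 34.0% of 33465 promoter windows of the same length, and an E-box in 1 of the 8, against 65.5%. The GC box GGGCGG was present in 6 of the 8 windows (30.5% of all windows). The TATA box TATAAA (12.9% of all) and the E-box form CACGTG (5.59% of all), which is 1 of the sequences that CANNTG covers, were present in 0 of the 8. Every motif was searched on both strands. These matches describe the letters of these windows and say nothing about which factor binds there.

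The 10 arrays lay on 2 slides. Slide 1 held OUM rats 1, 2 and 3 with naive rats 1, 2, 3 and 5, and slide 2 held OUM rats 4 and 5 with naive rat 4. Signals are given as log2 of the processed signal relative to the 75th percentile of the same array, so a log2 signal of 0 is the level of that percentile, which was 2620.3 to 2948.9 signal units. On each array 70.9% to 77.2% of the probes were well above background. A feature (the brightest probe of a gene, or a transcript without a symbol) entered the limma test if every array of at least 1 group had it well above background, which 19271 features met. The numbers of arrays limit the precision of every value. Among the marker genes of cell types that a TG sample could hold, the 7 pituitary hormone genes differed widely between arrays. Their summed signal was highest in OUM rats 2 (26.1) and 1 (19.5) and in naive rat 1 (21.4), as multiples of the 75th percentile, and lay between 0.336 and 5.32 on the other arrays. All 7 were higher on average in OUM rats, by 0.43 (*Fshb*) to 2.48 (*Pomc*) on the log2 scale. Of the 5 that were tested, 0 passed a limma adjusted or unadjusted p under 0.05.

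All 10 genes were well above background on all 10 arrays. *Thrsp* differed most between the groups, by 1.69-fold (OUM over naive), *Srebf1* by 1.17-fold and *Fasn* by 1.09-fold, and all 3 were higher on average in OUM rats. The other 7 genes differed by −0.0904 to 0.0203 on the log2 scale, with standard errors (SE) of 0.0466 to 0.0677. The median difference of the 10 genes was 0.00528, beside −0.0104 over all features. At a limma adjusted p under 0.05, 0 of the 10 were called, and 0.0104% of all features were (2 of 19271). At an unadjusted p under 0.05, *Thrsp* and *Srebf1* were higher and none of the 10 was lower, where 3.93% of all features were higher and 4.92% lower. The OUM and naive arrays overlapped for each of the 10 genes. Of all features, 0.799% had every OUM array above every naive array and 1.0% had every OUM array below. Because this contrast chose *Thrsp*, nothing is read from these counts. In whole ganglia, more RNA per cell and more cells of a type that expresses a gene cannot be told apart.

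**Figure D1:**
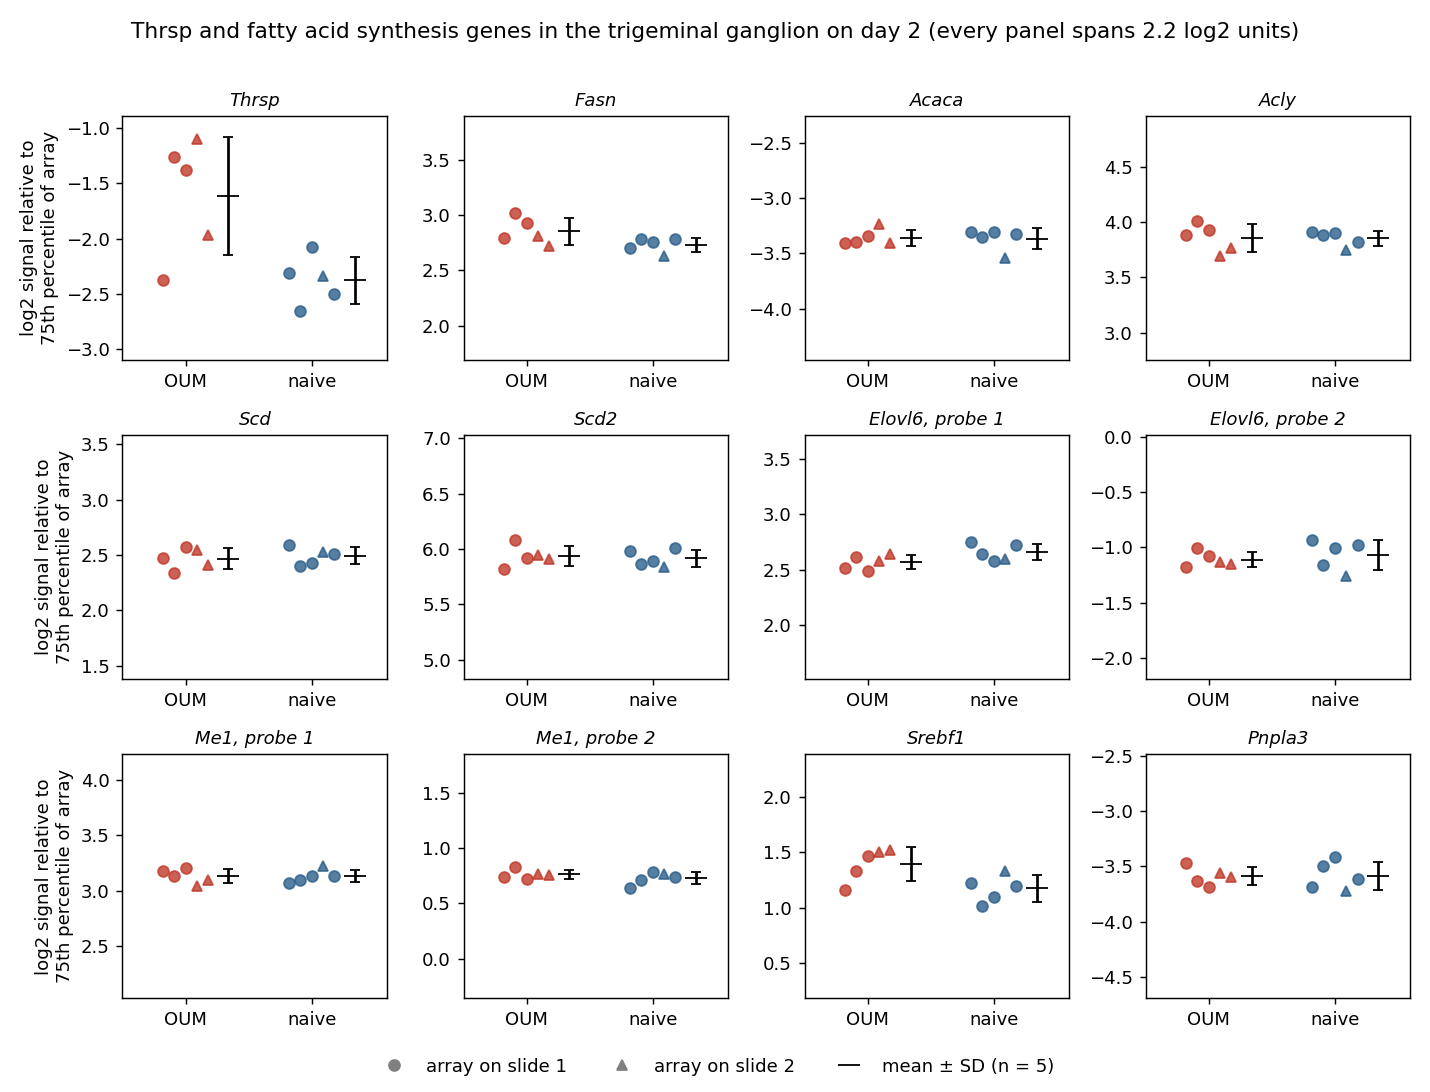
Log2 signal relative to the 75th percentile of the array (vertical axis) for each probe of the 10 genes, with OUM arrays at the left and naive arrays at the right of every panel. Points are arrays (circles on slide 1, triangles on slide 2), and lines are means with SD (n = 5); *Thrsp* has the widest spread, with 4 OUM arrays above all naive arrays.

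*Thrsp* had log2 signals of −2.37, −1.26, −1.38, −1.1 and −1.97 in OUM rats 1 to 5, against −2.31, −2.65, −2.08, −2.34 and −2.50 in naive rats 1 to 5. OUM rats 2 to 5 lay above every naive rat, and OUM rat 1 lay within the naive range. A split of this size or larger in the same direction, at least 4 of 5 OUM arrays, was found for 3.55% of all features. The group means were −1.62 ± 0.53 in OUM rats and −2.38 ± 0.22 in naive rats (SD, n = 5 each), a log2 difference of 0.76 (SE 0.23). The OUM arrays thus spanned −2.37 to −1.1 and the naive arrays −2.65 to −2.08. The SD within groups, pooled over both, was 0.41, larger than that of 94.4% of the features, whose median was 0.13. With slide as a block the difference was 0.74 (SE 0.25), and it was 0.72 on slide 1 alone and 0.80 on slide 2 alone, so OUM was the higher group on each slide. Without OUM rats 1 and 2 and naive rat 1, the arrays richest in pituitary genes, it was 0.91. Left out singly, OUM rat 1, the lowest OUM array for *Thrsp*, gave 0.95, OUM rat 2 gave 0.67 and naive rat 1 gave 0.78.

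*Srebf1* encodes SREBP-1, the transcription factor that switches on the genes of fatty acid synthesis. It had log2 signals of 1.16, 1.33, 1.47, 1.5 and 1.52 in OUM rats, against 1.22, 1.02, 1.1, 1.33 and 1.20 in naive rats. OUM rats 3, 4 and 5 lay above every naive rat, and the same OUM rat 1 that was low for *Thrsp* was the lowest of its group here. The means were 1.40 ± 0.15 in OUM rats and 1.17 ± 0.12 in naive rats (SD, n = 5 each), a log2 difference of 0.22 (SE 0.0821). It was 0.19 on slide 1 and 0.18 on slide 2, and 0.34 without the 3 arrays richest in pituitary genes. Left out singly, OUM rat 1 gave 0.28, OUM rat 2 gave 0.24 and naive rat 1 gave 0.24. 

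*Fasn* encodes fatty acid synthase, which assembles palmitate. Its log2 signals were 2.79, 3.02, 2.93, 2.81 and 2.72 in OUM rats and 2.70, 2.78, 2.76, 2.63 and 2.78 in naive rats. OUM rats 1 to 4 lay above every naive rat by a small margin, and OUM rat 5 lay among them. The means were 2.86 ± 0.12 in OUM rats and 2.73 ± 0.0658 in naive rats (SD, n = 5 each), a log2 difference of 0.13 (SE 0.0624). With slide as a block it was 0.16 (SE 0.0494), and within slides 0.16 and 0.14. Without the 3 arrays richest in pituitary genes it was 0.0879. Left out singly, OUM rat 1 gave 0.14, OUM rat 2 gave 0.0876 and naive rat 1 gave 0.12.

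The enzymes before fatty acid synthase had nearly the same level in both groups. *Acly* encodes ATP citrate lyase, which makes cytosolic acetyl-CoA, and its log2 signal was 3.69 to 4.01 in OUM rats (median 3.88) and 3.75 to 3.91 in naive rats (median 3.88). The means differed by 0.00303 (SE 0.0648). *Acaca* encodes acetyl-CoA carboxylase, which makes malonyl-CoA, and ranged from −3.41 to −3.24 in OUM rats and from −3.54 to −3.31 in naive rats. Its difference was 0.00752 (SE 0.0577) over all arrays, but −0.0597 on slide 1 and 0.22 on slide 2, where naive rat 4, the only naive array of that slide, was the lowest of the 10 arrays at −3.54. *Me1* encodes the cytosolic malic enzyme, 1 of the sources of NADPH. Its brighter probe gave 3.04 to 3.20 in OUM rats and 3.07 to 3.22 in naive rats, a difference of −0.00255 (SE 0.0466), and its other probe a difference of 0.0337 (SE 0.0416). The brighter probe differed by 0.0617 on slide 1 and by −0.16 on slide 2.

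The enzymes after fatty acid synthase and *Pnpla3* also overlapped. *Scd* and *Scd2* encode stearoyl-CoA desaturases, which place the first double bond. *Scd* ranged from 2.34 to 2.57 in OUM rats and from 2.40 to 2.59 in naive rats, and the difference of the means was −0.0251 (SE 0.0584). *Scd2* had log2 signals of 5.82, 6.08, 5.92, 5.95 and 5.91 in OUM rats against 5.98, 5.86, 5.89, 5.84 and 6.01 in naive rats, a difference of 0.0203 (SE 0.0575). The OUM arrays of *Scd2* include both the lowest and the highest of the 10 values, rats 1 and 2. *Elovl6* encodes the elongase that takes palmitate to stearate. Its brighter probe had 2.49 to 2.64 in OUM rats and 2.58 to 2.75 in naive rats, with OUM rats 1 and 3 below every naive rat, a difference of −0.0904 (SE 0.0503), and its other probe differed by −0.0435 (SE 0.069). *Pnpla3* encodes a lipid droplet protein of the patatin family whose gene is a target of SREBP-1c in liver. It ranged from −3.69 to −3.47 in OUM rats and from −3.72 to −3.42 in naive rats, a difference of −0.00357 (SE 0.0677).

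**Figure D2:**
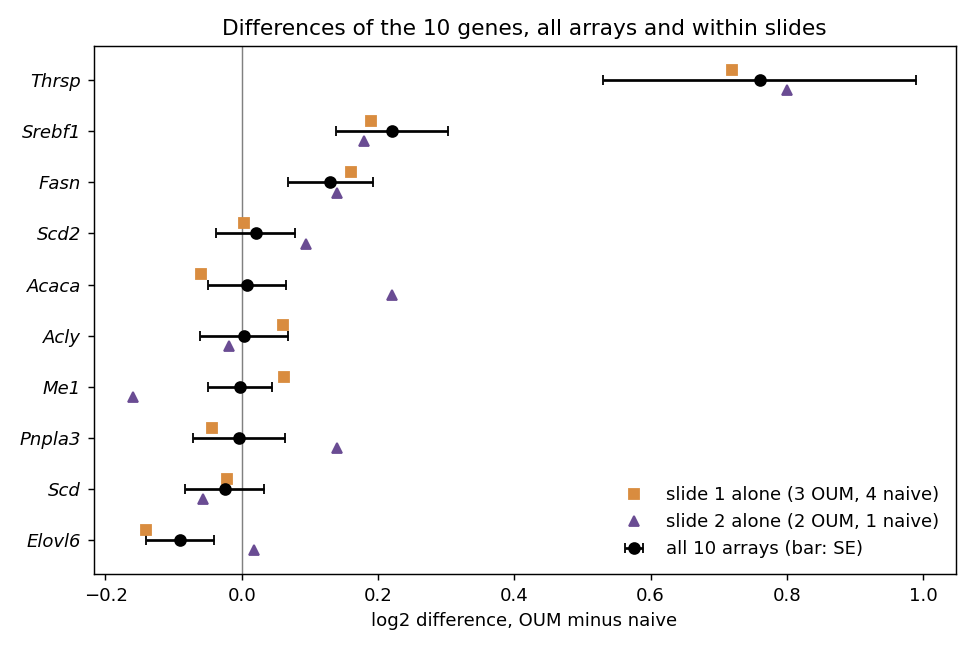
Log2 difference, OUM minus naive, of each of the 10 genes (horizontal axis; 0 is no difference) over all 10 arrays with its SE, on slide 1 alone (squares, 3 OUM and 4 naive arrays) and on slide 2 alone (triangles, 2 OUM and 1 naive arrays). *Thrsp*, *Srebf1* and *Fasn* lie above 0 on both slides, and *Me1*, *Acaca*, *Pnpla3*, *Elovl6* and *Acly* lie on opposite sides of 0 on the 2 slides.

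Since the contrast between the groups chose *Thrsp*, its relation to the other 9 genes was examined within the groups, after subtraction of each group mean, over 10 arrays. The correlation was highest with *Scd2* (Pearson r = 0.55, exact permutation p = 0.156, adjusted p = 0.727 over the 9 genes; Spearman rho = 0.62, exact permutation p = 0.0788, adjusted p = 0.355). With *Srebf1* it was 0.46 (exact permutation p = 0.268, adjusted p = 0.727; rho = 0.21, p = 0.603, adjusted p = 0.795). With *Fasn* it was 0.43 (exact permutation p = 0.354, adjusted p = 0.727; rho = 0.43, p = 0.324, adjusted p = 0.795). For the other 6 genes r was −0.26 to 0.39. The smallest Spearman p of the 9 was that of *Acaca* (rho = 0.60, exact permutation p = 0.0705, adjusted p = 0.355), whose r was 0.39. None of the 9 passed the threshold, before or after adjustment, by either measure. Without OUM rats 1 and 4, the arrays farthest from the median of *Thrsp*, r was 0.34 with *Scd2*, −0.18 with *Srebf1* and 0.58 with *Fasn*. It was then 0.67 with *Acly* and −0.43 with *Elovl6*, for which it was 0.0433 and 0.0152 over all arrays. Without OUM rat 1 alone r was 0.26 with *Scd2*, −0.0635 with *Srebf1* and 0.37 with *Fasn*, and without OUM rat 4 alone it was 0.38 with *Srebf1*. The relation with *Srebf1* thus rests on OUM rat 1, and that with *Scd2* is weaker without it. On slide 1 alone (7 arrays) r was highest with *Acly* (0.75), and was 0.64, 0.68 and 0.73 with *Scd2*, *Srebf1* and *Fasn*. Slide 2 held 3 arrays, too few for a correlation.

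**Figure D3:**
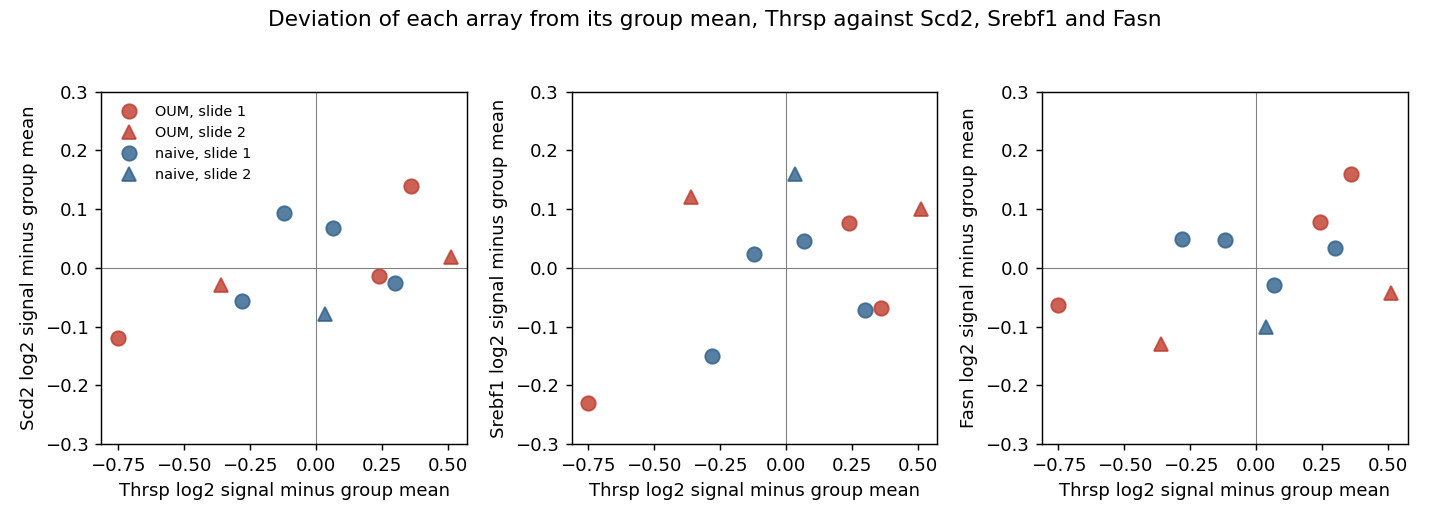
Deviation of *Thrsp* from its group mean (horizontal axis, log2) against the deviation of *Scd2*, *Srebf1* and *Fasn* from theirs (vertical axis, log2), 1 point per array, with red for OUM, blue for naive, circles for slide 1 and triangles for slide 2. OUM rat 1, at −0.75 on the horizontal axis, is the farthest array and lies below 0 in all 3 panels.

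The genes whose pattern was most like that of *Thrsp* within the groups, among 11536 genes with a symbol well above background on all 10 arrays, were *Podxl* (r = 0.94), *B3gnt7* (r = 0.93), *RGD1309362* (r = 0.92), *Pycard* (r = 0.91) and *Slc1a3* (r = 0.90). They were picked as the highest of many values, and no p is given. *Podxl* encodes podocalyxin, a sialylated surface protein, *B3gnt7* a glycosyltransferase, *Pycard* the inflammasome adaptor ASC, and *Slc1a3* the glutamate transporter GLAST of satellite glia and other glia. None is a gene of fatty acid synthesis. Their differences between the groups were 0.11 (SE 0.0699), 0.0956 (SE 0.0723), 0.069 (SE 0.0814), 0.0517 (SE 0.12) and 0.18 (SE 0.15), in the same order.

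*Slc1a3* is also 1 of the 6 satellite glia markers, 5 of which were well above background on all 10 arrays, and the summed signal of this list is given because *Slc1a3*, which is part of the sum, was picked for its likeness to *Thrsp*. The sum, as a multiple of the 75th percentile, was 7.01, 9.07, 8.77, 9.86 and 8.12 in OUM rats 1 to 5, against 8.52, 7.95, 8.17, 8.29 and 8.61 in naive rats 1 to 5. The naive sums lay within the range of the OUM sums. OUM rat 1 had the lowest satellite glia sum of the 10 arrays and the highest sensory neuron sum, 498, where the other OUM arrays had 405 to 445 and the naive arrays 437 to 476. The sums of Schwann cell and myelin markers overlapped (381 to 423 in OUM rats and 372 to 432 in naive rats). At an adjusted p under 0.05, 0 markers of the 11 cell type lists were called by limma, and at an unadjusted p under 0.05, 2 of 10 Schwann cell markers were higher, and of 6 satellite glia markers 1 was higher and 1 lower, where 3.93% of all features were higher and 4.92% lower. The part of cell composition in the *Thrsp* values was not tested.

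*Thrsp* is best known from fat and liver, so the markers of these tissues were read on the same arrays. Of 11 adipocyte markers on the array, 5 were well above background on no array (*Adipoq*, *Lep*, *Pck1*, *Adrb3* and *Car3*) and 5 on all 10. Of these 5, *Retn*, *Fabp4* and *Cfd* differed by 0.56, 0.27 and 0.14 (OUM minus naive), *Lipe* by −0.0028 and *Lpl* by −0.11, and 0 passed the adjusted or the unadjusted p. The sum of the list was 0.486 to 0.683 in OUM rats and 0.451 to 0.603 in naive rats. Among 5 brown adipocyte markers, *Ucp1*, the defining gene of brown fat, was well above background on no array. *Cidea* and *Cox8b* were well above background on all 10 and differed by −0.14 and −0.25, and *Elovl3* and *Dio2* were on 1 and 4 arrays. The sum of this list was 1.58 to 2.42 in OUM rats and 1.98 to 2.66 in naive rats. Of 6 hepatocyte markers, 3 were well above background on all 10 arrays. The sum of all 6 was 0.398 to 0.43 in OUM rats and 0.384 to 0.564 in naive rats. The part of these tissues in the *Thrsp* values was not tested.

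The partners of fatty acid synthase, the suppliers of NADPH and the enzymes of elongation and desaturation gave 0 genes past a limma adjusted p of 0.05. At an unadjusted p under 0.05, 0 were higher and 3 lower (*Prkaa1*, *Elovl4* and *Elovl5*), where 3.93% of all features were higher and 4.92% lower. Of 12 partner genes, 11 were tested (*Acacb* was below the background filter), with a median log2 difference of −0.0147 and 6 of 11 below 0, where 54.4% of all features were. *Mid1ip1*, the close relative of *Thrsp*, differed by 0.0551. *Prkaa1*, a catalytic subunit of AMP-activated kinase, which restrains acetyl-CoA carboxylase, had −3.42, −3.74, −3.61, −3.52 and −3.58 in OUM rats against −3.39, −2.63, −2.79, −2.83 and −3.51 in naive rats. OUM rats 2 to 5 lay below every naive rat, and naive rats 1 and 5 lay near them. The difference was −0.54 (SE 0.17, limma adjusted p = 0.489, exact permutation p = 0.0159, two-sided). *Acss2*, which makes acetyl-CoA from acetate, differed by −0.12 (SE 0.0827, limma adjusted p = 0.69, exact permutation p = 0.159, two-sided).

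All 6 NADPH genes on the array were tested (8 were listed), with a median of 0.00341. They ranged from −0.0867 for *Idh1* (SE 0.0685, limma adjusted p = 0.735, exact permutation p = 0.23, two-sided) to 0.0855 for *Rpia* (SE 0.078, limma adjusted p = 0.774, exact permutation p = 0.325, two-sided). *Idh1* encodes the cytosolic isocitrate dehydrogenase and *Rpia* an enzyme of the pentose phosphate pathway. Of 16 elongation and desaturation genes, 14 were on the array and 13 tested, with a median of −0.0547 and 11 of 13 below 0 (54.4% of all features). *Elovl4*, the elongase of very long chains, had −4.61, −5.03, −5.16, −4.99 and −4.83 in OUM rats against −4.59, −4.47, −4.52, −4.69 and −4.75 in naive rats. OUM rats 2 to 5 lay below every naive rat, a difference of −0.32 (SE 0.10, limma adjusted p = 0.489, exact permutation p = 0.0317, two-sided). *Hsd17b12*, a reductase of the elongation cycle, differed by −0.13 (SE 0.0675, limma adjusted p = 0.624, exact permutation p = 0.0873, two-sided). *Elovl5*, an elongase of polyunsaturated chains, differed by −0.13 (SE 0.0525, limma adjusted p = 0.545).

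Among the 15 genes of lipogenic transcription control, all tested, 0 passed the adjusted p, 2 were higher at an unadjusted p under 0.05 (*Mlxipl* and *Srebf2*) and 0 lower, where 3.93% of all features were higher and 4.92% lower. The median difference was 0.0263, with 4 of 15 below 0, where 54.4% of all features were. *Mlxipl* encodes ChREBP, the carbohydrate-sensing partner of SREBP-1c in switching on this pathway. Its log2 signals were −5.29, −5.38, −5.17, −5.25 and −5.25 in OUM rats and −5.43, −5.74, −5.40, −5.63 and −5.40 in naive rats. The groups did not overlap, as for 0.799% of all features in this direction. OUM rat 2 (−5.38) and naive rats 3 and 5 (−5.40 each) lay nearest to each other. The difference was 0.25 (SE 0.0758, limma adjusted p = 0.477, exact permutation p = 0.00794, two-sided, the smallest that 5 against 5 arrays can give). The probe is dim, and with the normexp background correction the difference was 0.12. *Rxra*, the partner receptor of LXR and thyroid hormone receptors, differed by 0.20 (SE 0.0939, limma adjusted p = 0.575, exact permutation p = 0.0873, two-sided). *Srebf2*, whose product SREBP-2 acts mainly on cholesterol synthesis, differed by 0.0888 (SE 0.038, limma adjusted p = 0.551).

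In the thyroid hormone list, 8 of 12 genes on the array were tested, 0 passed the adjusted p, and at an unadjusted p under 0.05, 0 were higher and 1 lower (*Crym*; 4.92% of all features were lower). *Thrb* and the deiodinase genes *Dio1*, *Dio2* and *Dio3* did not reach the background filter. *Klf9* and *Hr*, known targets of the hormone in brain, differed by 0.15 (SE 0.077) and 0.11 (SE 0.0602). Neither had an unadjusted p under 0.05, and both were named after their values had been seen. *Slco1c1*, a thyroxine transporter, had −0.78, −0.11, −0.51, −0.21 and −0.0245 in OUM rats against −0.35, −0.79, −0.82, −0.60 and −0.62 in naive rats. OUM rats 2, 4 and 5 lay above every naive rat and OUM rat 1 lay near the bottom of the naive range, a difference of 0.31 (SE 0.15, limma adjusted p = 0.589, exact permutation p = 0.0952, two-sided). *Crym*, which encodes a cytosolic thyroid hormone binding protein, differed by −0.19 (SE 0.074, limma adjusted p = 0.528, exact permutation p = 0.0476, two-sided). The median of the list was 0.0559.

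Of 20 genes of triglyceride synthesis and lipid droplets, 15 were tested, with a median of 0.00779. None passed the adjusted p, and at an unadjusted p under 0.05 *G0s2* and *Agpat1* were higher (3.93% of all features) and *Gpam* lower (4.92%). *G0s2* encodes an inhibitor of the lipase ATGL, the product of *Pnpla2*. Its log2 signals were 1.66, 1.67, 1.77, 1.76 and 1.73 in OUM rats and 1.16, 1.21, 1.17, 1.26 and 1.52 in naive rats. Every OUM rat lay above every naive rat, as for 0.799% of all features, and naive rat 5 was the naive array nearest to them. The difference was 0.46 (SE 0.0693, limma adjusted p = 0.157, exact permutation p = 0.00794, two-sided). Without naive rat 5 the difference was 0.52 and its limma adjusted p 0.021, and over all alternatives run for this gene the adjusted p was 0.021 to 0.53. *Gpam*, which encodes the acyltransferase of the first step of glycerolipid synthesis, differed by −0.20 (SE 0.0727, limma adjusted p = 0.512, exact permutation p = 0.0317, two-sided). *Agpat1*, the acyltransferase of the next step, differed by 0.19 (SE 0.0807, limma adjusted p = 0.549).

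The 22 genes of fatty acid activation and oxidation were all tested. Their median was −0.0616, 18 of 22 lay below 0 (54.4% of all features did) and 0 passed the adjusted p. The largest differences were those of the thiolase gene *Acaa2*, −0.20 (SE 0.14, limma adjusted p = 0.707, exact permutation p = 0.222, two-sided), and of the peroxisomal enzyme gene *Ehhadh*, −0.18 (SE 0.14, limma adjusted p = 0.728, exact permutation p = 0.31, two-sided). At an unadjusted p under 0.05, 0 were higher and 2 lower (3.93% and 4.92% of all features), *Acadm* and *Acadvl*, the medium-chain and very long-chain acyl-CoA dehydrogenase genes, which are named for that after their values had been read. *Acadvl* differed by −0.0985 (SE 0.0424, limma adjusted p = 0.552). *Acadm* had 1.63, 1.52, 1.64, 1.53 and 1.61 in OUM rats against 1.67, 1.75, 1.68, 1.67 and 1.65 in naive rats. Every OUM array lay below every naive array, as for 1.0% of all features, a difference of −0.0948 (SE 0.041, limma adjusted p = 0.555).

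**Figure D4:**
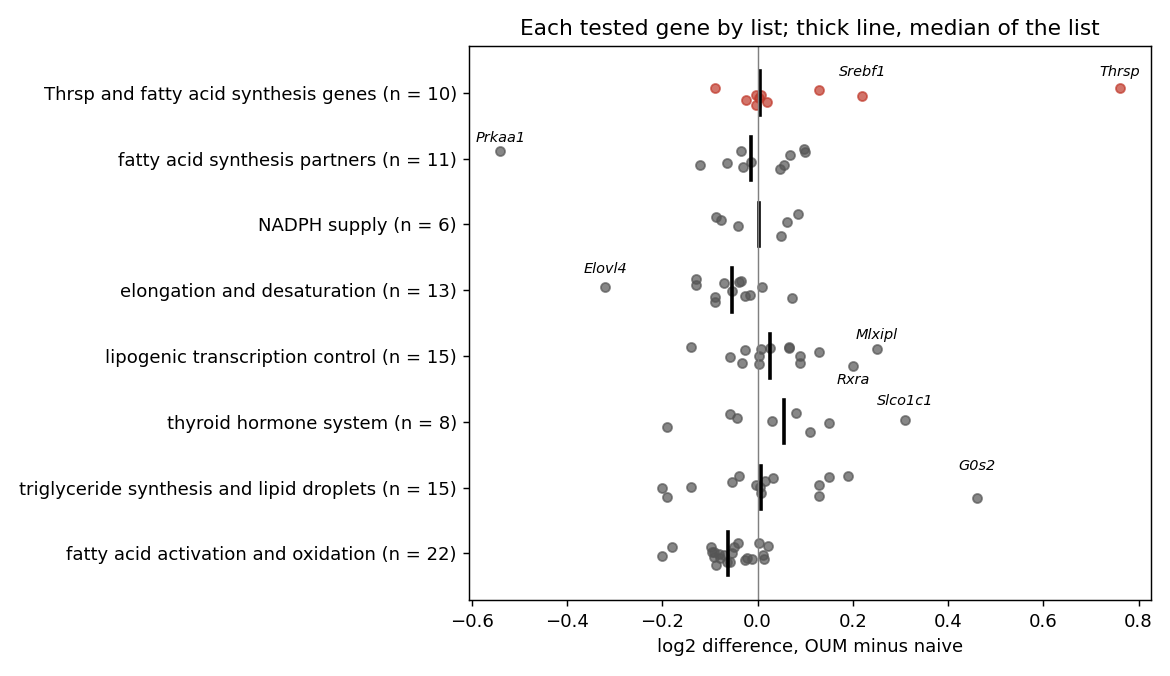
Log2 difference, OUM minus naive (horizontal axis), of every tested gene of the 10 described here and of the 7 lists around them (vertical axis, number of tested genes in brackets), 1 point per gene with the thick line at the median of the list. The medians lie between −0.0616 and 0.0559, and *Thrsp* and *Prkaa1* are the points farthest from 0.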

How the data were processed

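Total RNA of whole TGs was hybridized to 1-colour Agilent SurePrint G3 Rat GE arrays, 1 per rat. The authors quantified the scans with Agilent Feature Extraction 10.7.1.1 and normalized them with GeneSpring GX. The deposited scanner files give the processed signal of each spot, an intensity after background subtraction. The deposited value table holds the same intensity divided by a constant per array, on a linear scale (column medians 0.115 to 0.123), for 94.8% to 95.4% of the probes of an array to within 2%, and was used as an alternative.

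Without control spots and spots marked as outliers, the deposited intensity was averaged per probe, and its log2 was set against the 75th percentile of the array. The processed signal is background-subtracted, so small differences of dim probes carry more error. Accessions were matched to the RefSeq gene table of GRCr8 for names only, which named 18438 of 30367 probes and left 11929 without a symbol. The array annotation uses rn4, so no array coordinates are given. A probe was well above background where at least 50% of its spots were. A gene was read from its brightest probe, and other probes of the 10 genes are reported beside it.

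Groups were compared with limma 3.58.1 (lmFit, eBayes) in R 4.3.3, two-sided, with Benjamini-Hochberg adjustment over 19271 features (11986 with a symbol) and a threshold of 0.05. For the genes picked from each list by the largest difference, an exact permutation test (252 assignments) was added. They were picked on these same arrays, so this p is given as a description only. Correlations used all 14400 permutations within groups. Both procedures were tested on simulated data. Named genes were the 10 genes, the 2 genes of each list with the largest difference where none passed the adjusted p, and the 5 genes most correlated with *Thrsp*. *Mid1ip1*, *Klf9*, *Hr* and the genes counted at an unadjusted p were named beyond this rule, after their values had been seen. The genes and lists were chosen with earlier results of these data known. Alternatives were other normalizations, the normexp background correction (offset 50, on the median spot signal, since no mean spot signal was used), other filters and probe rules, the slide, a block for the replicate number, the methods' Welch test, the authors' table and each array left out. Leaving out the 3 arrays richest in pituitary genes was added after seeing the data.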

Additional observations from a re-analysis of the deposited data

Results flagged for a closer look

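In 52 groups of 5 arrays examined (the values of each named probe in OUM and in naive rats), 3 had an array far from the other 4 by Dixon's test, and chance gives about 1 in 20. *Acaca* was −3.54 in naive rat 4, where the other naive rats had −3.35 to −3.31. This is the naive array of slide 2, against which the slide 2 difference of *Acaca* was computed. *Rpia* was −1.03 in naive rat 1, where the other naive rats had −1.17 to −1.13. *G0s2* was 1.52 in naive rat 5, where the other naive rats had 1.16 to 1.26.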

How the results depend on the processing

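The log2 difference of *Thrsp* was 0.63 to 0.95 over 24 alternatives, that of *Srebf1* 0.18 to 0.34 and that of *Fasn* 0.0876 to 0.16. None of these moved by more than the SD within groups. The other genes moved by more than that only within slides: on slide 2 alone *Acaca* was 0.22, *Elovl6* 0.0179, *Me1* −0.16 and *Pnpla3* 0.14, and on slide 1 alone *Me1* was 0.0617. The median of the NADPH genes was 0.07 on slide 2 alone. Over 24 alternatives the median of the oxidation genes was −0.0894 to −0.0177. That of the elongation and desaturation genes was −0.0944 to −0.0196, and both stayed below 0. The median of the thyroid hormone genes stayed above 0 (0.000771 to 0.0855). Those of the synthesis partners (−0.0407 to 0.00901) and of transcription control (−0.0196 to 0.0655) lay on both sides of 0. So did those of triglyceride synthesis (−0.0184 to 0.0406) and of the NADPH genes (−0.0157 to 0.07). The alternatives reuse the same arrays, so a kept sign is not independent evidence of a direction. The spread between arrays was 0.31 for elongation and desaturation (median −0.0547) and 0.15 for thyroid hormone (median 0.0559). It was 0.0556 for oxidation (median −0.0616). Of 847 alternatives to 36 results, 818 stayed within the spread between arrays (differences and list medians without a test) or kept their direction and side of the threshold (the others). Differences near 0 changed sign among them, as those of *Acly* (−0.0421 to 0.0604), *Acaca* (−0.0597 on slide 1) and *Scd* (−0.0575 to 0.0412). *Ehhadh* changed sign on slide 2 alone (0.000765) and without the 3 arrays richest in pituitary genes (0.0188), and the correlation of *Thrsp* with *Srebf1* without OUM rat 1 (−0.0635; leaving out single arrays gave −0.0635 to 0.67). The causes were not tested. The count of all features past the adjusted p was 2. It was 0 with quantile normalization, with the median in place of the 75th percentile, with no filter on dim probes, with the mean of all probes of a gene, with the methods' Welch test, with the authors' table and without the 3 arrays richest in pituitary genes, and 128 on slide 2 alone (22 higher), where the 1 naive array is assumed to vary like the OUM arrays. Before adjustment the Welch test had 1582 features under its p threshold, 40 of them also over the methods' upper fold limit and 8 under the lower one. Leaving out single arrays gave 0 to 1 (1 without OUM rat 4, OUM rat 5 or naive rat 5). With the replicate block the count was 0 and the *Thrsp* difference 0.76. Arrays of the same number correlated at −0.013, −0.047, 0.134, 0.329 and −0.092, and 1 of 5 correlated best with its own number, so the numbers were not taken as pairs. None of the 9 genes correlated with *Thrsp* past the adjusted p under the alternatives run for the correlations (quantile or median scaling, outlier spots kept, the authors' table, slide as a block, slide 1 alone and each array left out), and slide 2 alone gave no correlation. With 5 arrays a group, the spread of *Thrsp* within OUM rats limits the precision of its difference. Dim probes such as those of *Mlxipl*, *Rxra* and *Elovl4* lie nearest to background. Over 25 alternatives their log2 differences were 0.12 to 0.38, 0.12 to 0.43 and −0.40 to −0.15, in the same order. Each was nearest to 0 with the normexp correction (0.12, 0.12 and −0.15).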
